A study of Mus musculus with 12 samples.

Results

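Heat shock chaperones are proteins that hold, fold or refold other proteins, and many of their genes are switched on when heat, injury or another stress leaves proteins unfolded. The transcription factor Hsf1 drives much of that induction by binding repeated short elements in the promoters. The HSP70 proteins fold clients in cycles paced by J-domain partners and nucleotide exchange factors, HSP90 matures signaling proteins, and the HSP60 and HSP10 pair folds proteins inside mitochondria. The genes examined were Hspa1a, Hspa1b, Hspa8, Hsph1, Hspb1, Hsp90aa1, Hspd1, Hspe1, Dnajb1 and Bag3, taken by name from the annotation of the arrays. They were 10 of the 37074 genes measured and had 20 of the 56605 probes.

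RNA came from the cecum of C57BL/6 mice labelled as male, on 12 one-colour arrays. There were 3 arrays of a sham control, which had a sham operation and which the study's methods place at the start of the time course, and 3 each of cecum at 3, 12 and 72 h from cauterization, an injury that leads to adhesions. The age of the mice is not given in the sources used here. The transcript of Xist, made from the inactive X chromosome, was well above background on 12 of the 12 arrays, and those of the Y-linked Ddx3y and Eif2s3y on 0, which goes against the labelled sex. Levels are log2 of the background-corrected intensity minus the 75th percentile of the array. Of the probes of each array, between 60.17% and 65.23% were well above background and 0 spots were saturated, and the number of arrays limits the precision. A gene was counted by its probe of the highest mean. It was called where the fold change was above 2 and the limma adjusted p, over all 56605 probes, was below 0.05.

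At 3 h, 8 of the 10 genes were called higher than in the sham control and 0 lower, where 3.26% of all genes were called higher and 4.11% lower. Their median log2 fold change was 1.42, beside 0.08 over all genes. The 10 genes were chosen with earlier results of these data known, so the contrasts with all genes are descriptions. With quantile normalization Hspa8, Hspb1 and Bag3 were no longer called at 3 h. At 12 h 6 were called higher and 0 lower, with 4.1% and 4.96% of all genes, and the median was 1.07 beside -0.01. Without 12 h replicate 2 the 12 h count was 3, with Hspa8, Hsp90aa1 and Dnajb1 no longer called. At 72 h 0 were called in either direction, where 4.55% of all genes were called higher and 4.3% lower, and the median was 0.26 beside -0.14. The 72 h and sham arrays lay on different slides, and with slide as a block 0 were again called at 72 h, but the median was 0.67 beside -0.20. By limma's unadjusted p below 0.05, without the block, Hspa8 was higher and Hspd1 lower at 72 h, at 0.46 and -0.69. Their limma adjusted p were 0.0504 and 0.0775, and no share of all genes at the unadjusted threshold is given. With slide as a block Hspa8 and Hspd1 were at 0.70 and -0.31, with standard errors of 0.26 and 0.44. Dunnett's test also called 0. Counted by probe, 14 of 20 were called higher by 3 h, 12 by 12 h and 0 in the 72 h comparison, beside 2.96%, 3.85% and 4.13% of all probes. The 3 comparisons share the sham arrays. No sham arrays belong to 3, 12 or 72 h, so cauterization and time since an operation cannot be told apart. Since the arrays measure whole tissue, fewer cells of a type and less RNA per cell cannot be told apart.

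**Figure D1:**
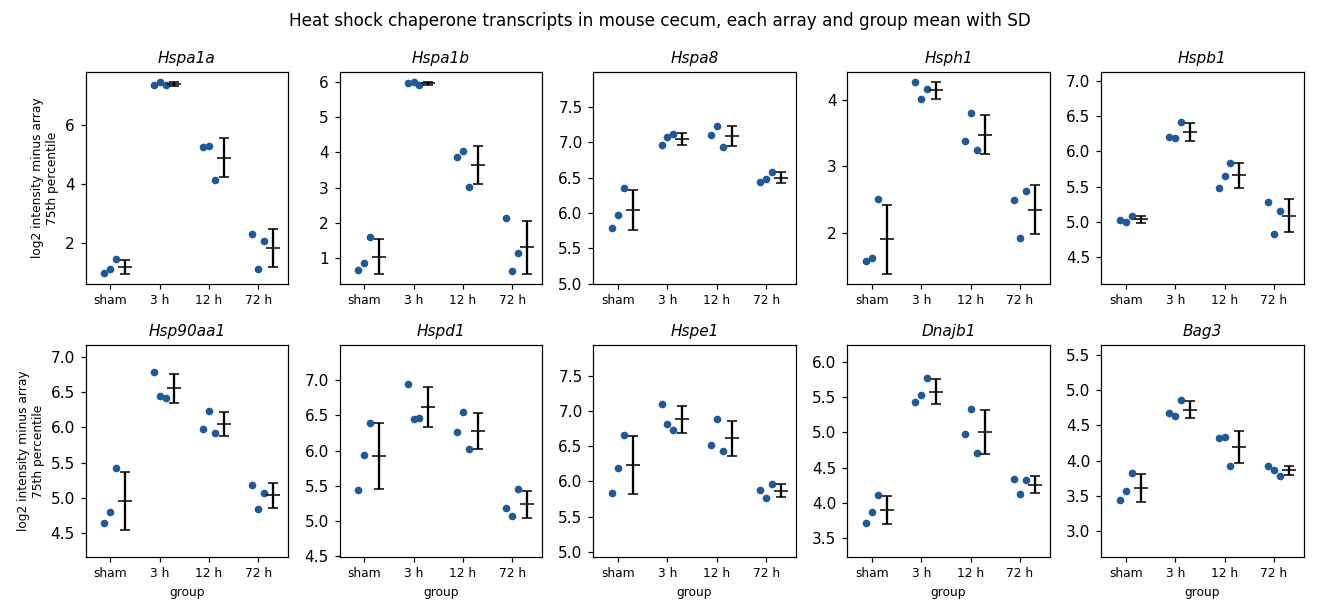
Level of each gene on each array (points) with the group mean and SD (bars), on the log2 scale relative to the array's 75th percentile, in the sham control and at 3, 12 and 72 h. Vertical ranges differ between panels. Hspa1a went from 1.19 in the sham control to 7.39 at 3 h and was at 1.84 at 72 h.

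The stress-inducible HSP70 genes Hspa1a and Hspa1b changed most of the 10 at 3 h and 12 h. In the sham control Hspa1a read 0.98, 1.14 and 1.45, and the 3 h arrays read 7.35, 7.46 and 7.37. The 12 h arrays read 5.27, 5.28 and 4.15, and those of 72 h read 2.33, 1.11 and 2.08. The 3 h and 12 h arrays did not overlap the sham arrays or each other, while the 72 h arrays overlapped the sham arrays. For this and the genes below, 28.8% of all genes had every 3 h array above the sham arrays, and 15.4% every 12 h array. The lowest of the 12 h values was that of replicate 3, which lay on the second slide. On the log2 scale Hspa1a rose by 6.20 at 3 h, 73.7-fold, with a standard error of 0.35 and a limma adjusted p of 9.78e-06. The rise at 12 h was 3.71, with a limma adjusted p of 9.88e-05. At 72 h it was 0.65, with a 95% confidence interval from -0.13 to 1.43. With slide as a block the 72 h value was 1.77, outside that interval, with a standard error of 0.50 and a limma adjusted p of 0.096, so whether Hspa1a was back at its sham level was not settled.

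Hspa1b encodes a protein nearly identical to that of Hspa1a, and its probe lies on chromosome 17 of mm9 from 35093374 to 35093405, beside that of Hspa1a from 35106766 to 35106825. Its sham arrays read 0.67, 0.86 and 1.60, against 5.95, 5.99 and 5.90 at 3 h. Readings of 3.85, 4.04 and 3.01 followed at 12 h, then 2.13, 0.63 and 1.16 at 72 h. The order of groups was that of Hspa1a, with overlap only between the 72 h and sham arrays. Hspa1b rose by 4.91 at 3 h, with a standard error of 0.39 and a limma adjusted p of 6.07e-05, and by 2.59 at 12 h, with one of 0.0013. Its 72 h value was 0.26, or 1.20 with slide as a block, and was called in neither fit. Whether each probe also takes up RNA of the other gene was not tested.

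Within an array, Hspa1a minus Hspa1b on the log2 scale was 0.31, 0.28 and -0.15 in the sham control and 1.40, 1.47 and 1.46 at 3 h. Values of 1.42, 1.23 and 1.14 were found at 12 h, and 0.20, 0.48 and 0.93 at 72 h. The 3 h and 12 h values lay above all sham values, by 1.30 and 1.12 on average (two-sided exact permutation test, p = 0.1 for each, the smallest p that 3 arrays against 3 allow, adjusted p = 0.171 over 12 tests). The probe of Hspa1a thus gained more signal than that of Hspa1b on these arrays, and this exact test cannot pass the threshold with 3 arrays a group.

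Hspa8, the constitutive HSP70 that serves protein folding in unstressed cells, was already bright in the sham control, at 5.79, 5.98 and 6.35. Readings at 3 h were 6.96, 7.08 and 7.12, those at 12 h 7.11, 7.23 and 6.94, and those at 72 h 6.45, 6.48 and 6.59. All 3 later groups lay above the sham arrays, at 72 h as for 12.7% of all genes, and the 3 h and 12 h arrays overlapped. Hspa8 rose by 1.01 at 3 h, with a limma adjusted p of 0.00141, and by 1.05 at 12 h, with one of 0.000841, both close to the fold threshold. The 3 h call was lost without sham replicate 1, without sham replicate 2, without 3 h replicate 3 and with 3 other scalings, and the lowest value among the alternatives was 0.74. The 12 h call was lost without sham replicate 1, without 12 h replicate 2 and with the percentile over bright probes. The 72 h value was 0.46, or 0.70 with slide as a block. Its 4 probes gave between 1.01 and 1.20 at 3 h. Set against Hspa8 on the same array, Hspa1a rose by 5.19 at 3 h (exact permutation test, p = 0.1, adjusted p = 0.171).

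Hsph1, an HSP110 protein that exchanges nucleotide on HSP70, read 1.58, 1.63 and 2.51 in the sham control and had a mean of 4.14 with an SD of 0.13 over the 3 h arrays. The 12 h readings were 3.38, 3.80 and 3.25, and the 72 h arrays had a mean of 2.35 with an SD of 0.37. The 3 h and 12 h arrays lay above the sham arrays and the 72 h arrays overlapped them. Hsph1 rose by 2.23 at 3 h, with a limma adjusted p of 0.000552, and by 1.57 at 12 h, with one of 0.00272. Its 72 h value was 0.45, or 0.79 with slide as a block, and was called in neither fit. A dimmer probe of Hsph1 was well above background on only 1 of the 3 sham arrays.

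Dnajb1, the HSP40 partner that delivers clients to HSP70, read 3.72, 3.86 and 4.11 in the sham control, then 5.43, 5.52 and 5.78 at 3 h. Readings of 4.97, 5.34 and 4.71 followed at 12 h, with 4.34, 4.12 and 4.33 at 72 h. Every later array was above every sham array, at 72 h narrowly, with a lowest value of 4.12 against a highest sham value of 4.11. At 72 h all arrays were above the sham arrays for 12.7% of all genes. The 3 h rise of 1.68 and the 12 h rise of 1.11 were called, with limma adjusted p of 0.000252 and 0.0017, and that of 0.36 at 72 h was not, with 0.185. With slide as a block the 72 h value was 0.81, at a limma adjusted p of 0.159. Without 12 h replicate 2 the 12 h value of Dnajb1 was no longer called.

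Bag3, a co-chaperone that links HSP70 to autophagy, read 3.44, 3.57 and 3.82 in the sham control, then 4.68, 4.63 and 4.86 at 3 h. The later readings were 4.32, 4.34 and 3.93 for 12 h, all above the sham arrays, and 3.92, 3.87 and 3.79 for 72 h, which overlapped them. Bag3 was called at 3 h only, with 1.11 (limma adjusted p = 0.000775), while its 12 h value was 0.58 (0.0169), under the fold threshold. The 3 h call was lost with quantile normalization and with the percentile over bright probes. At 72 h the value of Bag3 was 0.25, and 0.65 with slide as a block, without a call. Between 3 h and 12 h Bag3 changed by -0.53, without a call, at a limma adjusted p of 0.0501.

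Hspb1, the small heat shock protein that keeps unfolded proteins soluble and binds actin, had a sham mean of 5.03 with an SD of 0.04 and read 6.21, 6.19 and 6.42 at 3 h. Readings were 5.49, 5.65 and 5.84 for the 12 h arrays and 5.28, 4.83 and 5.16 for those of 72 h. The 3 h arrays stood above all others, and Hspb1 was called at 3 h, with 1.24 (limma adjusted p = 0.000405), and not at 12 h, with 0.63. The 3 h call was lost with quantile normalization.

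Hsp90aa1, the stress-inducible cytosolic HSP90, read 4.65, 4.80 and 5.43 in the sham control, against 6.79, 6.45 and 6.42 at 3 h. The 12 h arrays read 5.98, 6.24 and 5.92, still above the sham control, and those of 72 h read 5.19, 4.85 and 5.07, among the sham values. Hsp90aa1 rose by 1.60 at 3 h, with a limma adjusted p of 0.000744, and by 1.09 at 12 h, with one of 0.00437. The 12 h call was lost without sham replicate 1 or 12 h replicate 2 and with the mean of its 3 probes, where it was 0.72. One of these probes was well above background on 1 array of 12. The constitutive form Hsp90ab1 was not called at any time, with 0.39, 0.21 and 0.01 in order of time. The log2 difference between Hsp90aa1 and Hsp90ab1 on an array rose from a mean of -1.83 in the sham control to one of -0.62 at 3 h (exact permutation test, p = 0.1, adjusted p = 0.171).

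**Figure D2:**
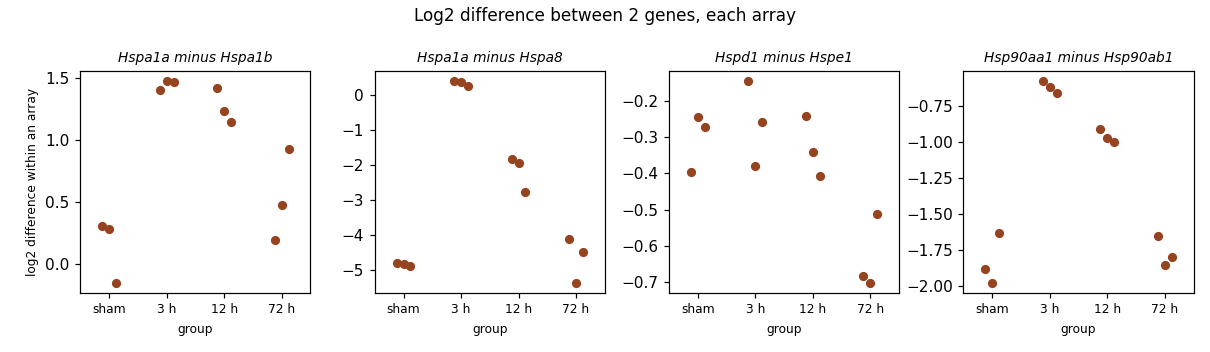
Log2 difference between the genes of each pair within an array, 1 point per array, in the sham control and at 3, 12 and 72 h. Vertical ranges differ between panels. The difference of Hspa1a and Hspa8 went from a mean of -4.85 in the sham control to 0.34 at 3 h, and only the change between groups can be read from it.

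The mitochondrial chaperonin genes had the smallest changes of the 10 at 3 h. Hspd1, which encodes HSP60, read 5.45, 5.94 and 6.39 in the sham control, 6.95, 6.44 and 6.46 at 3 h, 6.27, 6.54 and 6.02 at 12 h, then 5.19, 5.07 and 5.45 at 72 h. Hspe1, which encodes its lid HSP10, read 5.84, 6.18 and 6.66, then 7.09, 6.82 and 6.72, then 6.51, 6.89 and 6.43, then 5.88, 5.77 and 5.96 in the same groups. For both genes all 3 h arrays were above the sham arrays, as for 28.8% of all genes, and the later groups overlapped them. Neither was called against the sham control. Their 3 h values were 0.69 (95% confidence interval from 0.15 to 1.24, limma adjusted p = 0.0785) and 0.65 (from 0.19 to 1.11, limma adjusted p = 0.0533). The log2 difference between Hspd1 and Hspe1 had a mean of -0.30 in the sham control, -0.26 at 3 h and -0.63 at 72 h, where all arrays lay below the sham arrays (exact permutation test, p = 0.1, adjusted p = 0.171). The 72 h and sham arrays lay on different slides. Against the sham control at 72 h, Hspd1 was at -0.69 and Hspe1 at -0.36, or -0.31 and -0.09 with slide as a block.

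The steps between time points do not involve the sham arrays. From 3 h to 12 h, 2 genes fell, Hspa1a and Hspa1b, and 0 rose, beside 1.56% and 1.89% of all genes. From 12 h to 72 h, 5 fell and 0 rose, beside 3.19% and 4.33% of all genes, and on the same 10 genes every 72 h array was below every 12 h array, as for 24.1% of all genes. The 5 were Hspa1a, Hspa1b, Hsph1, Hsp90aa1 and Hspd1. The first slide held the sham and 3 h arrays and replicates 1 and 2 of 12 h, and the second held replicate 3 of 12 h and the 72 h arrays. Slide and 72 h can be told apart only through that 1 array. With slide as a block the number called lower from 12 h to 72 h was 1, Hspa1a, and within the second slide, where 1 array at 12 h is assumed to vary like the 72 h arrays, it was 0. The changes themselves kept their sign and were smaller in both fits, at -2.31 for Hspa1a, -1.71 for Hspa1b, -0.89 for Hsph1, -0.89 for Hsp90aa1 and -0.79 for Hspd1. Without 12 h replicate 2 or 72 h replicate 2, 2 genes were called lower from 12 h to 72 h. The counts at 3 h and 12 h against the sham control were 8 and 6 with slide as a block and within the first slide. Over all probes the median log2 difference was -0.15 at 72 h against the sham control, -0.11 from 3 h to 12 h and -0.14 from 12 h to 72 h, and the changes given here contain these shifts.

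Around these 10 genes, 86 others of the chaperone network were listed by role, also with earlier results of these data known. Of them 9 were called higher and 3 lower by 3 h, 8 and 2 by 12 h, then 3 and 2 by 72 h. Over all genes the shares were 3.26% and 4.11%, 4.1% and 4.96%, and 4.55% and 4.3%. The medians of the 86 genes were 0.31, 0.16 and -0.07, and without sham replicate 3 the number higher at 12 h was 13. The number higher at 3 h was smaller with the percentile over bright probes, as given under the dependence on processing. With slide as a block the number higher at 72 h was 1, Hmox1, and the calls of Serpinh1 and Atf3 were lost. The transcript of Hsf1 was at 0.11, -0.06 and -0.14 against the sham control and was not called, and in its list of 4 heat shock factors and the binding protein Hsbp1 only Hsf5 was called, lower at 72 h, on a probe not well above background on any array and not with slide as a block.

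Of 9 other HSP70 and HSP110 genes, Hspa1l rose by 1.05, from a level well above background on 2 of the 3 sham arrays, and Hspa12b fell by 1.28 at 3 h, and Hspa13, which lies in microsomes, rose by 1.07 at 12 h. Of 11 other J-domain genes 1 was called, Dnaja1, which rose by 1.01 at 3 h. None of the 8 BAG and nucleotide exchange genes, the 8 subunits of the cytosolic chaperonin TRiC and the 6 mitochondrial quality control genes was called by limma at any time against the sham control. Of 11 co-chaperones of HSP90 and HSP70 1 was called, Fkbp5, an immunophilin also known as a glucocorticoid-induced gene, with a rise of 1.42 at 3 h, at a limma adjusted p of 0.000853, and a 12 h value of -0.03. Between these times Fkbp5 changed by -1.45, which was called, with a limma adjusted p of 0.00239.

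Among 7 other small heat shock proteins, several of them muscle proteins, changes went in both directions. Hspb2 fell by 1.44 at 3 h and 1.79 at 12 h and was at 0.24 at 72 h, and Hspb6 fell by 1.03, 1.34 and 1.20. Hspb7 rose by 1.46 at 12 h (limma adjusted p = 0.00543). Of the 8 smooth muscle markers, 2, 8 and 7 were lower at the 3 times. Their summed linear level was 596, 587 and 557 in the sham control, then 303, 366 and 360 by 3 h, 175, 186 and 280 by 12 h, and finally 203, 243 and 268 for 72 h, with Tagln the brightest in the sham control, and none was below background on all sham arrays. The part of this loss in the fall of Hspb2 and Hspb6 was not tested.

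Among 12 chaperones of the endoplasmic reticulum, 1 was called higher by 3 h, 3 by 12 h and 1 by 72 h. Hspa5, the HSP70 of that compartment known as BiP, rose by 1.05 at 3 h and by 1.66 at 12 h, with limma adjusted p of 0.0281 and 0.00245. Hyou1 and Sdf2l1, which work with BiP, rose by 1.38 and 1.33 at 12 h, and Sdf2l1 had not risen at 3 h, a difference between the times of 1.37 that was called at a limma adjusted p of 0.00765. Hspa5, Hyou1 and Sdf2l1 were all called lower at 72 h than at 12 h, by -1.02, -1.22 and -1.12. All 3 calls were lost with slide as a block, where the values were -0.92, -1.26 and -1.03. Serpinh1, the collagen chaperone HSP47, rose at 72 h alone, by 2.38 (limma adjusted p = 0.000446), and its 72 h minus 12 h difference of 2.25 was called (0.000789), also with slide as a block, at 2.14 (0.0257). The 72 h value of Serpinh1 with slide as a block was 2.21, at a limma adjusted p of 0.0597. Of 7 other stress-induced genes 5, 3 and 2 were called higher in order of time. Hmox1, which degrades heme, was at 2.92, 3.03 and 3.76, the metallothioneins Mt2 and Mt1 were at 2.98, 1.84 and 0.83 and at 1.87, 0.55 and 0.08, and the stress transcription factor Atf3 was at 2.47, 2.17 and 1.07. The 72 h values with slide as a block were 3.54 for Hmox1, with a call, and 1.20 for Atf3, without one.

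Marker transcripts of other cell types changed in the same tissue. Of 9 neutrophil markers 6 were higher at each time, and their summed linear level was 91.7, 81.4 and 92.5 in the sham control, then 360, 599 and 494 by 3 h, 858, 828 and 821 by 12 h, and finally 441, 349 and 636 for 72 h. Csf3r was the brightest in the sham control, without a rise (-0.44, -0.34 and -0.40 in order of time), while S100a9 rose by 10.06 at 3 h, and Cxcr2 was well above background on none of the sham arrays. Ly6g was among the 6 at 3 h and 12 h, at 3.61 and 3.65, and not at 72 h, at -0.08. Mpo was called at 72 h alone, at 2.985. The rise of the neutrophil sum from 3 h to 12 h came mostly from S100a9 and S100a8, and the median change of the 9 markers against the sham control was 3.61 at 3 h and 3.65 at 12 h. Of 8 macrophage markers 0, 3 and 8 were higher, with Csf1r the brightest in the sham control and sums between 30.4 and 32.4 in the sham control, 24.8 and 30.01 by 3 h, 34.0 and 35.7 by 12 h, then 96.6 and 107 by 72 h. Of 8 epithelial markers 0 were called at 3 h and 12 h and 1 was lower at 72 h, with Krt8 the brightest in the sham control. The epithelial sums lay between 1259 and 1400 in the sham control, 1589 and 1771 by 3 h, 1276 and 1563 by 12 h, then 780 and 1043 by 72 h, and the step from 12 h to 72 h was not tested for them. The part of these cells in the chaperone values was not tested. Of 6 mesothelial markers 2 were lower at 3 h and 12 h and 2 higher at 72 h, of 6 endothelial markers 2 were higher at 72 h, of 7 enteric neuron and glia markers 2 were lower at 12 h and 1 at 72 h, and 0 of 7 lymphocyte markers were called.

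Outside these lists, the genes whose levels followed Hspa1a most closely over the 12 arrays were Arc (Pearson's r = 0.989), B4galt3 (0.987), Qtrtd1 (0.985) and Eif3j1 (0.981), with an unnamed transcript at 0.979, among 7595 genes with group means at least 1 apart and at least 3 arrays well above background. Arc, an immediate early gene best known in neurons, was at 3.43, 1.68 and 0.22 against the sham control. Closest to Hspd1 were AV310571 (0.998), Yars2 (0.994), Timm8a1 (0.987) and a pair of transcripts without a symbol (0.990 and 0.985). Yars2 and Timm8a1 encode mitochondrial proteins. These correlations are descriptions, since the arrays of a group share their condition.

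Promoter windows of RefSeq (GRCm38.p6), 300 bases from each start, were held for 8 of the 10 genes, and Hspa8 and Hsp90aa1 had none in the table. The heat shock element is built of inverted repeats of GAA, so the letters GAANNTTC and TTCNNGAA were searched, each the same on both strands, and so were 3 alternating units in a row, which contain both and read differently on the strands. Of all 32851 windows, 7.86% held the first, 8.52% the second, 15.1% either, and 0.31% and 0.32% the longer motif starting with GAA or with TTC. These shares are per window, and of the 11 windows of the 8 genes 8 held either short motif. The windows of Hsph1 overlap and hold the same motifs, so the same sites enter this count more than once. Counted by gene, 7 of 8 held it in at least 1 window, and Dnajb1 did not. The 7 are not independent, since Hspd1 and Hspe1 share an element and the windows of Hspa1a and Hspa1b are nearly identical. A share by gene over all genes is not given here. A match is a description of the letters and not a binding site. The windows below are shown because they belong to genes that rose together, or, for Hspe1, to one that moved less, with the motifs in capitals.
Hspa1a, chr17:34972107-34972406, minus strand: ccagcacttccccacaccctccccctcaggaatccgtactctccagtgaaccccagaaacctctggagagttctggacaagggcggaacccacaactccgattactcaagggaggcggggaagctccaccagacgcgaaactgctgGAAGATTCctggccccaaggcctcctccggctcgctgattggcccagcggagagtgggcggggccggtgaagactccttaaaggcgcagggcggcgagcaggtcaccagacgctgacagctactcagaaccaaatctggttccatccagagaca
Hsph1, chr5:149636287-149636586, minus strand: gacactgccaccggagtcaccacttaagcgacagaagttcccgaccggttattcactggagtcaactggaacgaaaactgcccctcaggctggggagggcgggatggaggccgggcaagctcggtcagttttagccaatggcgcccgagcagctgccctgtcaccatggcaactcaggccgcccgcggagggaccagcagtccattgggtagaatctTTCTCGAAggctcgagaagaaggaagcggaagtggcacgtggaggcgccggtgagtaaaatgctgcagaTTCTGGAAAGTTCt
Hspb1, chr5:135887669-135887968, plus strand: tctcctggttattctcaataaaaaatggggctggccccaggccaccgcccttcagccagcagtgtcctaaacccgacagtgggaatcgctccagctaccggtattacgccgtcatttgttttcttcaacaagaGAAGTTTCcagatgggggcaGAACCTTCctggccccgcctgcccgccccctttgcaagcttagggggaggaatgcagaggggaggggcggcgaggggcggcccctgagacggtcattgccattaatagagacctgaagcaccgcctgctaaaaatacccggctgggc
Hspe1, chr1:55087898-55088197, plus strand: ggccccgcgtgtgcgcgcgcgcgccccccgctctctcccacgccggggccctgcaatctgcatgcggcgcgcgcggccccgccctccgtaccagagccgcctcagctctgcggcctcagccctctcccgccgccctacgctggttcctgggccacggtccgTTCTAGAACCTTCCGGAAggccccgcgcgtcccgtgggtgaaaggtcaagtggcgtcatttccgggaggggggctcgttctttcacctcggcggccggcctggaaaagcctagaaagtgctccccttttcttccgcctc
The window of Hspa1b was 98.7% identical to that of Hspa1a, with 4 differences, C44T, T47C, T249G and C276T, counted from 1 at the 5′ end with the base of Hspa1a first, and with the same motif. Hspd1 and Hspe1 are read in opposite directions from neighbouring starts, and a window of Hspd1 overlaps that of Hspe1 and holds the same element. Hspe1 and Hsph1 held a longer motif, while Hspa1a, which rose most, held 1 short motif in its window.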

How the data were processed

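For each array the authors provided a text file of Feature Extraction 11.5.1.1, holding background-corrected intensity values that were not scaled between arrays. A further file deposited by the authors holds log2 values. The methods describe scaling to the 75th percentile in GeneSpring without baseline transformation, while these values are centred on the median of each row. Outlier spots were dropped, the log2 values of a probe's spots were averaged, and the 75th percentile over non-control probes was subtracted per array. This was the setting fixed in advance. A percentile over all spots replaced it for a time once the data had been read and is kept as an alternative chosen after seeing the data. The fixed setting was restored when results were already known. Fits used limma 3.58.1 (R 4.3.3, with version 1.17.8 of the data.table package) with group means over 12 arrays and Benjamini-Hochberg adjustment, and passed trials on simulated data. Within-array differences between genes were tested by exact permutation. Probe coordinates are those of mm9, and exons were not assigned. The members and lists were chosen with earlier results of these data known, and so was the look at sex-linked transcripts. Named were all members, per list up to 4 called genes of the largest change, and Hsf1 and Hsp90ab1. Alternatives covered background correction, scaling, filters, thresholds, tests (Dunnett's by mvtnorm 1.3.3; a t-test paired by replicate number), blocks, the authors' values and leaving out each array.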

Additional observations from a re-analysis of the deposited data

Results flagged for a closer look

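The level differed between time points for 5 of the genes, by the limma test of the difference itself. Without sham arrays at these times, cauterization and time since an operation cannot be told apart. From 3 h to 12 h Hspa1a changed by -2.49 on the log2 scale (adjusted p = 0.00344) and Hspa1b by -2.31 (adjusted p = 0.00778). From 12 h to 72 h Hspa1a changed by -3.06 (adjusted p = 0.000559), Hspa1b by -2.33 (adjusted p = 0.00345), Hsph1 by -1.12 (adjusted p = 0.0184), Hsp90aa1 by -1.01 (adjusted p = 0.00842) and Hspd1 by -1.04 (adjusted p = 0.0165). In each case the 3 arrays of the later time lay below the 3 arrays of the earlier one, as for 18.7% of all genes from 3 h to 12 h and 24.1% from 12 h to 72 h. The second slide and 72 h can be told apart only through 1 array. With slide as a block, only Hspa1a kept its call for the later step, and the changes were -2.31 for Hspa1a, -1.71 for Hspa1b, -0.89 for Hsph1, -0.89 for Hsp90aa1 and -0.79 for Hspd1. The calls of Hsp90aa1 and Hspd1 were each lost in 11 of 29 alternatives, among them normexp, quantile normalization and leaving out 12 h replicate 2 or 72 h replicate 2, and that of Hsph1 in 7. With 3 arrays a group, no search for outlying arrays was made.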

How the results depend on the processing

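The counts of genes called higher at 3 h (8) and 12 h (6) were the same under the replicate block (8 and 6), the authors' table, dim probes left out, outlier spots kept, slide as a block and trend with robust fitting. Whether replicate numbers pair the arrays was not settled. The deviations of equal numbers correlated between -0.40 and 0.26, and some arrays but not all correlated best with their own number. Under the replicate block the steps gave 2 and 5 falls, 0 genes were called at 72 h, and 9, 8 and 3 network genes were higher. With the percentile over spots, chosen after seeing the data, 7 genes were higher at 3 h, Hspa8 being lost, and 4 fell from 12 h to 72 h. At 3 h the count was 5 with quantile normalization. From 12 h to 72 h 3 fell with quantile normalization, with normexp and with the percentile over bright probes, 1 with slide as a block and 0 within the second slide. Network genes were 5 at 3 h with the percentile over bright probes, and 1 at 72 h with slide as a block. The methods name Student's paired t-test for comparisons of 2 groups but not for the arrays, and give no pairing of them. Paired here by replicate number, it called with Benjamini-Hochberg adjustment 0 genes in every comparison, members and network alike. With 3 pairs and adjustment over all probes, the paired test had little power to call a gene. At an unadjusted p below 0.05 the paired test called 8 at 3 h, 3 at 12 h, and 3 falls from 12 h to 72 h, with no share of all genes to set beside them. Against the threshold itself (treat) 2 and 1 members and 4 and 3 network genes were higher at 3 h and 12 h, with 0 and 1 falls in the steps. Without a fold threshold 18, 22 and 6 network genes were higher and 9 members fell from 12 h to 72 h. Shares of all genes called were given for the main setting only, so counts under other thresholds and tests have none beside them. Such counts do not show whether the members differ from all genes.

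Leaving out each array gave 7 to 8 members higher at 3 h, 3 to 6 at 12 h (3 without 12 h replicate 2) and 2 to 5 falls from 12 h to 72 h (2 without 12 h replicate 2 or 72 h replicate 2). It gave 6 to 9, 7 to 13 (13 without sham replicate 3) and 3 to 4 network genes. The change against the sham control in the log2 difference of Hspd1 and Hspe1 ranged from -0.0139 to 0.103 at 3 h and from -0.0724 to 0.0121 at 12 h, that of Hspa1a and Hspa8 from -0.0862 to 0.537 at 72 h, and that of Hsp90aa1 and Hsp90ab1 from -0.0119 to 0.160 at 72 h, with -0.006883 under normexp. Values without a call that changed sign, with their range on leaving out each array, were those of Hspb1 at 72 h (-0.04085 to 0.183, and -0.221 with slide as a block), Hspa1b at 72 h (-0.148 to 0.599), Hsp90aa1 at 72 h (-0.0813 to 0.310) and Hspa8 from 3 h to 12 h (-0.0305 to 0.116, and -0.02245 with the mean of probes). The causes were not tested. With 3 arrays a group, the exact tests between genes could not pass the threshold, time at 72 h and slide are nearly the same split, and RNA of whole tissue does not say which cells changed.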

Other observations

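Of the sham arrays, replicate 3 read highest for each of the 10 genes, as for 43.3% of all genes and for 37.4% of the 20792 genes well above background on every array. The cause was not tested.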
